A study of Homo sapiens with 8 samples.

Results

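Transcripts of the nuclear genes that encode the subunits of respiratory complexes I to IV, together with cytochrome c, were described in HSC39, an established line of human gastric carcinoma cells of the signet ring kind. The members are the probe sets with exactly 1 gene symbol that is NDUFA, NDUFB, NDUFC, NDUFS or NDUFV followed by a number, SDHA, SDHB, SDHC, SDHD, CYC1 or CYCS, or that begins with UQCR, COX4I, COX5, COX6, COX7 or COX8. The rule found 63 genes of 18404, with 68 of the 19158 probe sets that have 1 symbol, in a table of 32321. Complex I has 35 probe sets of 33 genes, complex II 5 of 3 genes, complex III 9 of 9 genes, cytochrome c 1, and complex IV 18 of 17 genes. One member of the complex III set, UQCRBP1, is a pseudogene of UQCRB and no subunit. NDUFV1-DT, a divergent transcript whose symbol goes on after the number, was left out, as were 5 probe sets that carry a member's symbol beside others. SDHB, UQCRFS1, NDUFA4 and the subunits encoded by mitochondrial DNA were not analysed here.

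Of the 8 arrays, 2 were of cells given TRIM44 siRNA 7, 2 of cells given TRIM44 siRNA 9 and 4 of cells given negative siRNA, labelled All stars. All cells were of this single line and were grown in RPMI with fetal calf serum. Transfection lasted 48 h with TRIM44 siRNA at 100 nM, a unit the labels write as nm, and the negative samples carry the same wording, so no label gives the dose of negative siRNA. TRIM44, the target of both reagents, is a tripartite motif protein with a ubiquitin-binding zinc finger. The series text counts 4 biological replicates per condition. Nothing else says whether these were separate cultures, so each p-value here reflects how far these arrays spread, a spread that may be technical.

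The respiratory chain of the inner mitochondrial membrane passes electrons from NADH (through complex I) and succinate (through complex II) to ubiquinone, on through complex III and cytochrome c, and at complex IV to oxygen. Complexes I, III and IV pump protons as they do so, and ATP synthase uses the resulting gradient to make ATP. Most subunits are encoded in the nucleus, made in the cytosol and imported, while a few core subunits come from mitochondrial DNA. Small accessory subunits surround the core that carries the redox centres, and several complex IV subunits exist as pairs of isoforms, one found in most tissues and one in muscle, lung or testis.

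TRIM44 had log2 levels of 10.85 and 11.27 on the siRNA 7 arrays and 11.10 and 11.14 on the siRNA 9 arrays, against 11.91, 12.02, 11.91 and 11.77 on the negative arrays. The siRNA arrays lay below all negative arrays, and the pooled difference came to -0.81 log2 units with an SE of 0.10 (adjusted p = 0.0449 in limma). A 2-sided exact permutation test gave p = 0.0286, the smallest that 70 assignments allow. The adjusted p was 0.0587 to 0.291 with any array but siRNA 7 array 2 left out in turn. Array medians lay between 6.78 and 6.87. On the first principal component over named probe sets, the siRNA 9 arrays (15.5 and 17.2) and negative array 2 (13.6) stood apart from the other 5 (-11.8 to -5.57). The epithelial markers EPCAM, CDH1, KRT8, KRT18 and KRT19 had mean log2 levels between 11.81 (KRT18) and 13.08 (KRT8) on the negative arrays, and none of the 5 passed the test in any comparison. Markers of fibroblasts had 7.74 for COL1A1, 6.46 for COL1A2, 6.56 for COL3A1, 4.38 for DCN and 9.90 for LUM. The 4 measured leukocyte markers were at 4.25 (PTPRC), 5.78 (CD3E), 6.50 (CD14) and 6.10 (ITGAM), and the endothelial markers at 5.56 (PECAM1), 6.94 (CDH5), 5.81 (VWF), 5.32 (KDR) and 5.13 (TEK). Signal over background is not given, so a dim probe set cannot be told from an absent transcript, and log2 levels of different probe sets are not ranked against each other.

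With both reagents taken as 1 condition, no respiratory chain probe set passed the threshold (0 of 68, beside 0.00522% of all 19158 tested, an adjusted p under 0.05 in limma). The lowest adjusted p among the members was 0.905. At an unadjusted p under 0.05 there was 1 of 68 members, UQCR10, where the share of all probe sets was 5.43%. The median log2 difference was -0.02 over the members and 0.01 over all probe sets tested, and 27 of the 68 members had a value above 0, against 53.7% of all probe sets. The members lay between -0.28 and 0.17, and 56 of them (82.4%) within 0.1 of 0, against 67.1% of all probe sets. The 95% interval of the difference stayed within 1 log2 unit either way for all 68 members, and within 0.5 for 66. A fall or rise in bulk RNA cannot be divided here between the share of cells that hold a transcript and its level per cell.

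By complex, the median log2 difference for TRIM44 siRNA was -0.02 in complex I, -0.05 in complex II, -0.04 in complex III and 0.00 in complex IV, and CYCS had -0.06. The member median of -0.02 depended on 1 array, being 0.01 without siRNA 9 array 2. NDUFA11, a membrane subunit of complex I, was the member whose 4 siRNA arrays all lay below the negative arrays (1 of 68, beside 1.26% of all probe sets). It had 8.62 and 8.65 with siRNA 7 and 8.53 and 8.43 with siRNA 9, against 8.76, 8.70, 8.68 and 8.73 with negative siRNA. Its difference was -0.16 (SE 0.08, adjusted p = 0.922). UQCR10, a small subunit of complex III, had 10.38 and 10.49 with siRNA 7 and 10.55 and 10.50 with siRNA 9, against 10.29, 10.39, 10.26 and 10.30 with negative siRNA. Its siRNA arrays were higher but for 1, which lay below negative array 2, and the difference was 0.17 (SE 0.08, adjusted p = 0.905). The other members of smallest p included NDUFA6 at -0.28, NDUFV1 at -0.17 and UQCR11 at -0.15. NDUFA9, COX7A2L and COX6C had 0.13, NDUFV2 had 0.12 and COX5B had 0.09. SDHC had -0.08 and SDHD 0.05, and these 2 and NDUFV2 are given on their brighter probe sets. The adjusted p in limma was 0.922 or more for all of these.

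**Figure D1:**
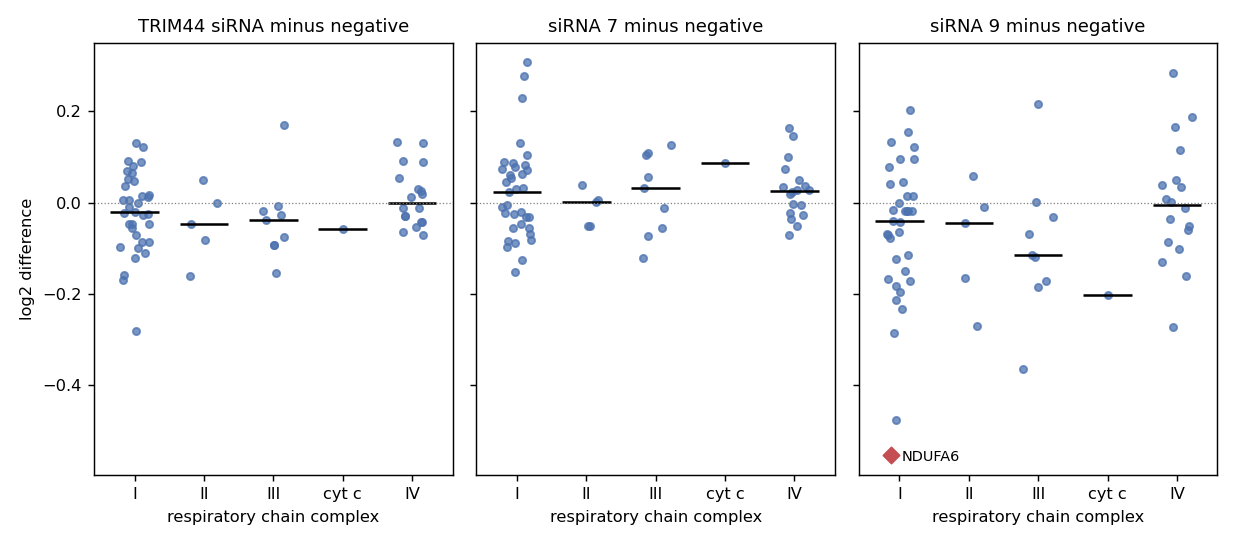
Log2 differences from negative siRNA of the 68 probe sets, by respiratory complex (horizontal axis), for both reagents together (left), siRNA 7 (centre) and siRNA 9 (right). Each point is a probe set, black lines are medians of a complex, and the diamond marks NDUFA6 at -0.55 with siRNA 9, the only member past an adjusted p of 0.05 in these 3 comparisons.

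With siRNA 9 alone, 1 member passed the test, in complex I. NDUFA6, an accessory subunit of the LYR family that sits on the matrix arm of complex I and binds the acyl carrier protein, fell with siRNA 9. Its log2 level was 10.23 and 10.26 with siRNA 9, against 10.74, 10.91, 10.79 and 10.76 with negative siRNA. The siRNA 9 arrays lay close together and well below every negative array. The difference was -0.55 (SE 0.09, 95% interval -0.75 to -0.36, adjusted p = 0.0165), or 68.1% of the level with negative siRNA. With siRNA 7 the levels were 10.75 and 10.83, inside the range of the negative arrays, and the difference was -0.01 (SE 0.09, 95% interval -0.21 to 0.19). The difference between the reagents, siRNA 7 minus siRNA 9, was 0.54 (SE 0.10, adjusted p = 0.0233). NDUFA6 was thus 1 of 68 members called with siRNA 9, 1.47% beside 0.924% of all probe sets tested. The call against negative siRNA ended without negative array 3 (adjusted p = 0.0682), siRNA 9 array 1 (0.297) or siRNA 9 array 2 (0.235), with sizes of -0.58 to -0.52 over the arrays left out in turn. It also ended when probe sets without a symbol were tested too (0.0821). The call between the reagents ended without each of negative array 3, both siRNA 7 arrays and both siRNA 9 arrays, with adjusted p of 0.0520 to 0.218.

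The start region of NDUFA6 is shown beside those of UQCR11 and UQCR10, complex III genes whose log2 differences with siRNA 9 had opposite signs. Each is the RefSeq window of GRCh38.p14 from 250 bases before to 50 bases after the annotated start, read 5′ to 3′ on the strand of the gene. Capitals mark matches on either strand to 3 motifs of factors known to act on genes of mitochondrial proteins, GCGCA and GCGC parted by any 1 base for NRF1, CCGGAAG for ETS factors such as GABP, and AAGATGG for YY1. The window of NDUFA6 lies at chr22:42090723-42091022 on the minus strand, that of UQCR11 at chr19:1605413-1605712 on the minus strand and that of UQCR10 at chr22:29767119-29767418 on the plus strand.
NDUFA6: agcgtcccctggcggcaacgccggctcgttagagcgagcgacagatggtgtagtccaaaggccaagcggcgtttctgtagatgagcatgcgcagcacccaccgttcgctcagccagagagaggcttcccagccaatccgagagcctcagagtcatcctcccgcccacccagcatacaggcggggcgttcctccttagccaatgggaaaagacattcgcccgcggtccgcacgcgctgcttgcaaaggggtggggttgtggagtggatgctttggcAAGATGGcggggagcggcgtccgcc
UQCR11: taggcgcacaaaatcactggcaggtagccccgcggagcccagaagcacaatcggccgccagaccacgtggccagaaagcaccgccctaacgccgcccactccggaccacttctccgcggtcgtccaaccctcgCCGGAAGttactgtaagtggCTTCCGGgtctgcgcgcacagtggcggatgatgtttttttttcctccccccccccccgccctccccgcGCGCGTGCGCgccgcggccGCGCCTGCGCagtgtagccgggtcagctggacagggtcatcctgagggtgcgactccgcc
UQCR10: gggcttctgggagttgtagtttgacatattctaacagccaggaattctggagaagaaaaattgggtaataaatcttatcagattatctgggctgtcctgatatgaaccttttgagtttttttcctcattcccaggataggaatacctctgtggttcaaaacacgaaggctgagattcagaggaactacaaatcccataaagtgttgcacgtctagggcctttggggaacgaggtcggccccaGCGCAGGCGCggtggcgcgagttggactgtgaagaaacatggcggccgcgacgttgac
NDUFA6 has 1 match, to the YY1 motif, just downstream of the start. UQCR11 has 4 matches, of NRF1 and ETS kinds, and UQCR10 has 1 match to the NRF1 motif.

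Among the other complex I genes none passed with siRNA 9, and 24 of the 35 probe sets had a value below 0, with a median of -0.04. NDUFV1, the flavoprotein that takes electrons from NADH, had 11.34 and 11.22 with siRNA 9, against 11.68, 11.34, 11.64 and 11.60 with negative siRNA. Negative array 2 lay level with siRNA 9 array 1 and the other negative arrays lay above both siRNA 9 arrays. The difference was -0.29 (SE 0.11, adjusted p = 0.282), and without negative array 2 it was -0.36 and passed (adjusted p = 0.0452). Without that array 5.57% of all probe sets passed, against 0.924% with all arrays. NDUFA11 had -0.23 with siRNA 9 (adjusted p = 0.239). NDUFS4, an accessory subunit that stabilises the NADH-oxidising part of the enzyme, had 8.34 and 8.29 with siRNA 9, against 8.56, 8.53, 8.53 and 8.50 with negative siRNA on its brighter probe set. There the groups did not overlap and the difference was -0.21 (SE 0.09, adjusted p = 0.288), whereas its other probe set, at 4.43 on average with negative siRNA, had 0.12 (adjusted p = 0.773).

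The core subunits of complex I named here took both signs with siRNA 9. NDUFS3, a core subunit of the matrix arm, had 9.91 and 9.97 with siRNA 9, against 9.74, 9.84, 9.73 and 9.64 with negative siRNA. Both siRNA 9 arrays were above all negative arrays, and the difference was 0.20 (SE 0.09, adjusted p = 0.352). NDUFS1, a core subunit with several iron-sulfur clusters, had 0.13 with siRNA 9 (adjusted p = 0.583). NDUFS7 and NDUFS8, which carry clusters on the way to ubiquinone, had -0.15 and -0.20 (adjusted p = 0.550 and 0.492). For NDUFV2, a cluster-bearing partner of NDUFV1, the 2 probe sets differed. The brighter had 9.94 and 9.84 with siRNA 9, against 9.77, 9.97, 9.85 and 9.91 with negative siRNA, a difference of 0.01. The other had 8.38 and 8.33 with siRNA 9, against 8.67, 9.38, 8.70 and 8.57 with negative siRNA, a difference of -0.48 with an SE of 0.26 (adjusted p = 0.468).

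In complex II, which oxidises succinate, no probe set passed in any comparison, and log2 differences with siRNA 9 ran from -0.27 to 0.06. SDHA, the flavoprotein subunit, had 11.88 and 11.75 with siRNA 9, against 11.80, 11.79, 11.88 and 11.83 with negative siRNA, a difference of -0.01. SDHC, a membrane anchor, had 2 probe sets, with -0.17 on the brighter (adjusted p = 0.466) and -0.27 on the other (adjusted p = 0.397). The second value came mainly from siRNA 9 array 1, at 8.19, while siRNA 9 array 2, at 8.71, lay inside the negative range of 8.64 to 8.83. SDHD, the other anchor, had 0.06 and -0.04 on its 2 probe sets.

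In complex III, which passes electrons from ubiquinol to cytochrome c, 7 of 9 probe sets were below 0 with siRNA 9, with a median of -0.11, and none passed. UQCR11, a small accessory subunit, had 9.13 and 8.97 with siRNA 9, against 9.31, 9.45, 9.51 and 9.40 with negative siRNA. Both siRNA 9 arrays were below all negative arrays, and the difference was -0.36 (SE 0.10, adjusted p = 0.133). The siRNA 7 levels of UQCR11 were 9.35 and 9.59, and the reagents differed by 0.42 (SE 0.12, adjusted p = 0.0967). UQCR10, with the siRNA 9 arrays above all negative arrays, had 0.22 (SE 0.09, adjusted p = 0.30). UQCRC2, a core protein of the matrix side, had 11.08 and 11.14 with siRNA 9, against 11.37, 11.21, 11.27 and 11.29 with negative siRNA, with no overlap and a difference of -0.17 (adjusted p = 0.425). UQCRC1, the other core protein, had -0.11. CYC1, the haem protein cytochrome c1, had 11.61 and 11.51 with siRNA 9, against 11.62, 11.61, 11.74 and 11.74 with negative siRNA, a difference of -0.12 (adjusted p = 0.644). For UQCRH, UQCRQ and UQCRB the values were 0.00, -0.07 and -0.18, and the pseudogene UQCRBP1 had -0.03.

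CYCS, which encodes cytochrome c, the mobile carrier between complexes III and IV that also triggers caspases when released, had 8.92 and 8.97 with siRNA 9, against 9.13, 9.29, 9.16 and 9.01 with negative siRNA. The groups did not overlap, and the difference was -0.20 (SE 0.11, adjusted p = 0.491). With siRNA 7 its 2 arrays disagreed, at 9.06 and 9.41, with a difference of 0.09. The reagents differed by 0.29 (SE 0.13, adjusted p = 0.316).

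Complex IV, cytochrome c oxidase, had 9 of its 18 probe sets above 0 and 9 below 0 with siRNA 9, a median of -0.01 and none past the threshold. COX6C, an accessory membrane subunit, had 10.16 and 10.27 with siRNA 9, against 10.00, 10.04, 9.93 and 9.74 with negative siRNA. Both siRNA 9 arrays were above all negative arrays, and the difference was 0.29 (SE 0.10, adjusted p = 0.231). COX5B, which binds zinc on the matrix side, had 0.19 (adjusted p = 0.405), and COX7A2L, which helps join complexes III and IV into supercomplexes, had 0.17 (adjusted p = 0.467). COX5A, the partner of COX5B on that side, had 0.00. COX7B had -0.27 with a wide SE of 0.23 (adjusted p = 0.687).

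The complex IV isoforms known from particular tissues gave no call in any comparison. With siRNA 9 the differences were 0.04 for COX4I2 (lung), 0.11 for COX6A2 and -0.01 for COX7A1 (heart and muscle), and 0.03, 0.05 and -0.10 for COX6B2, COX7B2 and COX8C (testis). With siRNA 7 these were 0.02, -0.01, 0.03, 0.15, -0.07 and -0.03 in the same gene order. Their ubiquitous partners COX4I1, COX6A1, COX7A2, COX6B1, COX7B and COX8A had -0.05, -0.04, -0.13, -0.16, -0.27 and -0.09 with siRNA 9, and -0.04, -0.05, 0.07, 0.02, 0.16 and 0.03 with siRNA 7. For COX6A1 these are of its brighter probe set, while on the other both siRNA 7 arrays lay above all negative arrays. COX4I2 had the widest spread of the isoforms, with log2 levels of 6.43, 6.13, 6.33 and 6.78 on the negative arrays that enclosed all 4 siRNA values (6.53 and 6.35 with siRNA 7, and 6.43 and 6.48 with siRNA 9).

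**Figure D2:**
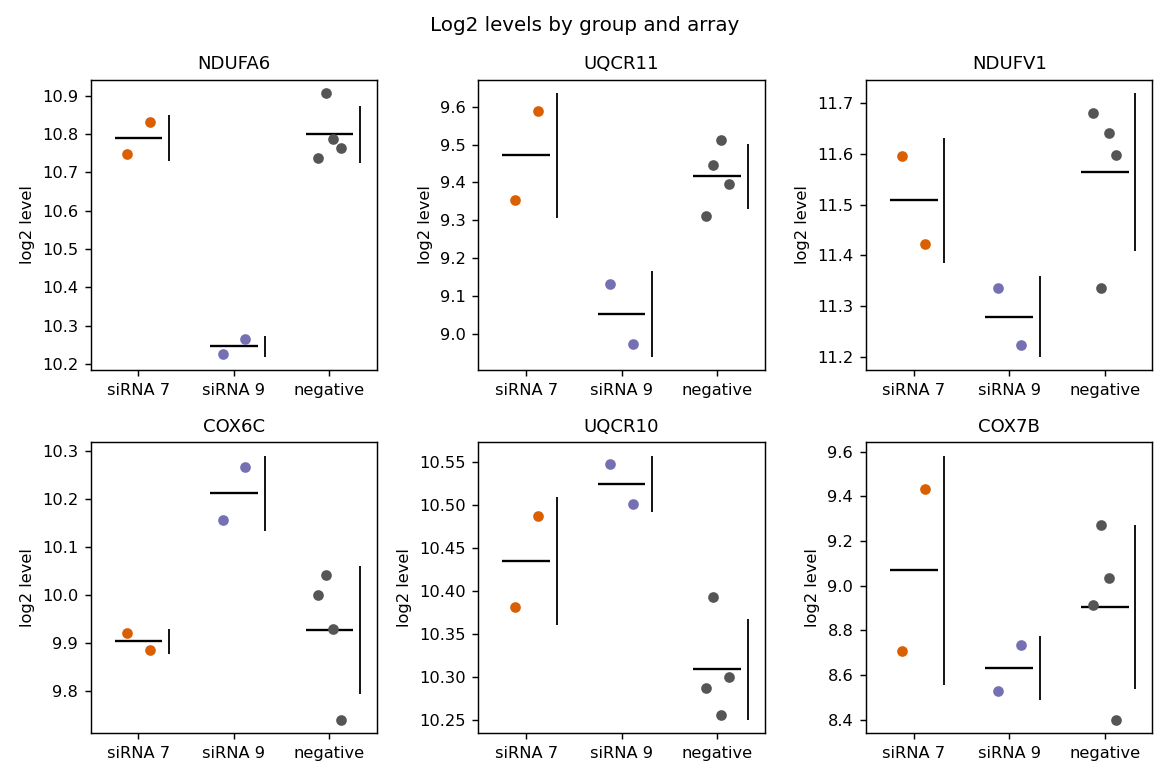
Log2 levels (vertical axes, which do not start at 0) of 6 genes on each array of siRNA 7, siRNA 9 and negative siRNA (horizontal axes). Points are arrays, horizontal lines are means and vertical lines span 1 SD either side of the mean. The siRNA 9 arrays lay below all negative arrays for NDUFA6 and UQCR11 and above them for COX6C and UQCR10, while COX7B spread widely within siRNA 7 and negative siRNA.

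Over all members, siRNA 9 gave a median log2 difference of -0.04, where all probe sets had 0.02, and 23 of 68 members (33.8%) lay above 0, where all probe sets had 56.5%. The median was -0.06 without siRNA 9 array 1 and -0.02 without siRNA 9 array 2. Both siRNA 9 arrays lay below all negative arrays for 12 of 68 members (17.6%, beside 9.23% of all probe sets) and above them for 6 (8.82%, beside 13.4%). At an unadjusted p under 0.05 there were 8 members (11.8%, beside 13.6%), of which 5 were lower (beside 5.56%). The 95% interval stayed within 0.5 log2 units of 0 for 60 of the 68 members. The members were chosen with earlier results known, and no p is given over them.

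With siRNA 7 alone, no member passed the test (0 of 68, beside 0.0679% of all probe sets), and 1 had an unadjusted p under 0.05 in limma, against 7.46% of all probe sets. That member was NDUFV2 on its brighter probe set, with 10.10 and 10.11 against 9.77, 9.97, 9.85 and 9.91 with negative siRNA, no overlap and a difference of 0.23 (SE 0.09, adjusted p = 0.578). Whether this probe set reads NDUFV2 or a pseudogene was not tested. NDUFB6, a membrane-arm subunit of complex I, had 0.31 (SE 0.18, adjusted p = 0.815), from siRNA 7 levels of 8.08 and 8.70 against 7.88, 8.44, 8.14 and 7.86. That value rested on siRNA 7 array 2, since it was -0.00 without it. UQCR10 had 0.13 and COX6B2 had 0.15 (adjusted p = 0.871 for both), the COX6B2 value being 0.29 without siRNA 7 array 2 and 0.0052 without array 1. On the lower side, NDUFA3 and NDUFA7, small accessory subunits of complex I, had -0.15 and -0.12, while NDUFS1 had -0.10 and NDUFS6, a zinc-binding subunit, had -0.09 (adjusted p = 0.871 to 0.949).

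Over all 68 members the siRNA 7 median was 0.02, where all probe sets had -0.00, and 38 members lay above 0 (55.9%, beside 49.3%). Without siRNA 7 array 2 the member median was -0.02. The siRNA 7 arrays did not overlap the negative arrays for 7 members, 4 of them higher (beside 6.38% of all probe sets) and 3 lower (beside 7.99%). The comparisons of the reagents with negative siRNA share the 4 negative arrays, so their values are given side by side and not correlated.

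Set against each other, the reagents differed in 1 of 68 members, NDUFA6 (1.47%, beside 2.23% of all probe sets). At an unadjusted p under 0.05 there were 8 members (11.8%, beside 15.7%), and the arrays of the reagents did not overlap for 35 (51.5%, beside 48.6%). With siRNA 7 minus siRNA 9, 44 members lay above 0 (64.7%, beside 43.3%) with a median of 0.06, where all probe sets had -0.03. Among genes by their brighter probe set, the smallest unadjusted p on the higher side after UQCR11 belonged to NDUFS4 at 0.29 (SE 0.10, adjusted p = 0.168) and NDUFB6 at 0.48 (SE 0.21, adjusted p = 0.296). The NDUFB6 value was 0.17 without siRNA 7 array 2 and 0.79 without siRNA 7 array 1. NDUFV2 on its dimmer probe set had 0.75 (SE 0.30, adjusted p = 0.231), the largest difference between the reagents of the 68 members. That value came mainly from siRNA 7 array 2, at 9.61, while siRNA 7 array 1 had 8.60, against 8.38 and 8.33 with siRNA 9. On the lower side were COX6C at -0.31 (adjusted p = 0.218), NDUFS1 at -0.23 (0.294), NDUFS3 at -0.23 (0.321) and COX5B at -0.19 (0.429). The member median was 0.09 without siRNA 7 array 1, 0.08 without siRNA 9 array 1 and 0.03 without siRNA 9 array 2.

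**Figure D3:**
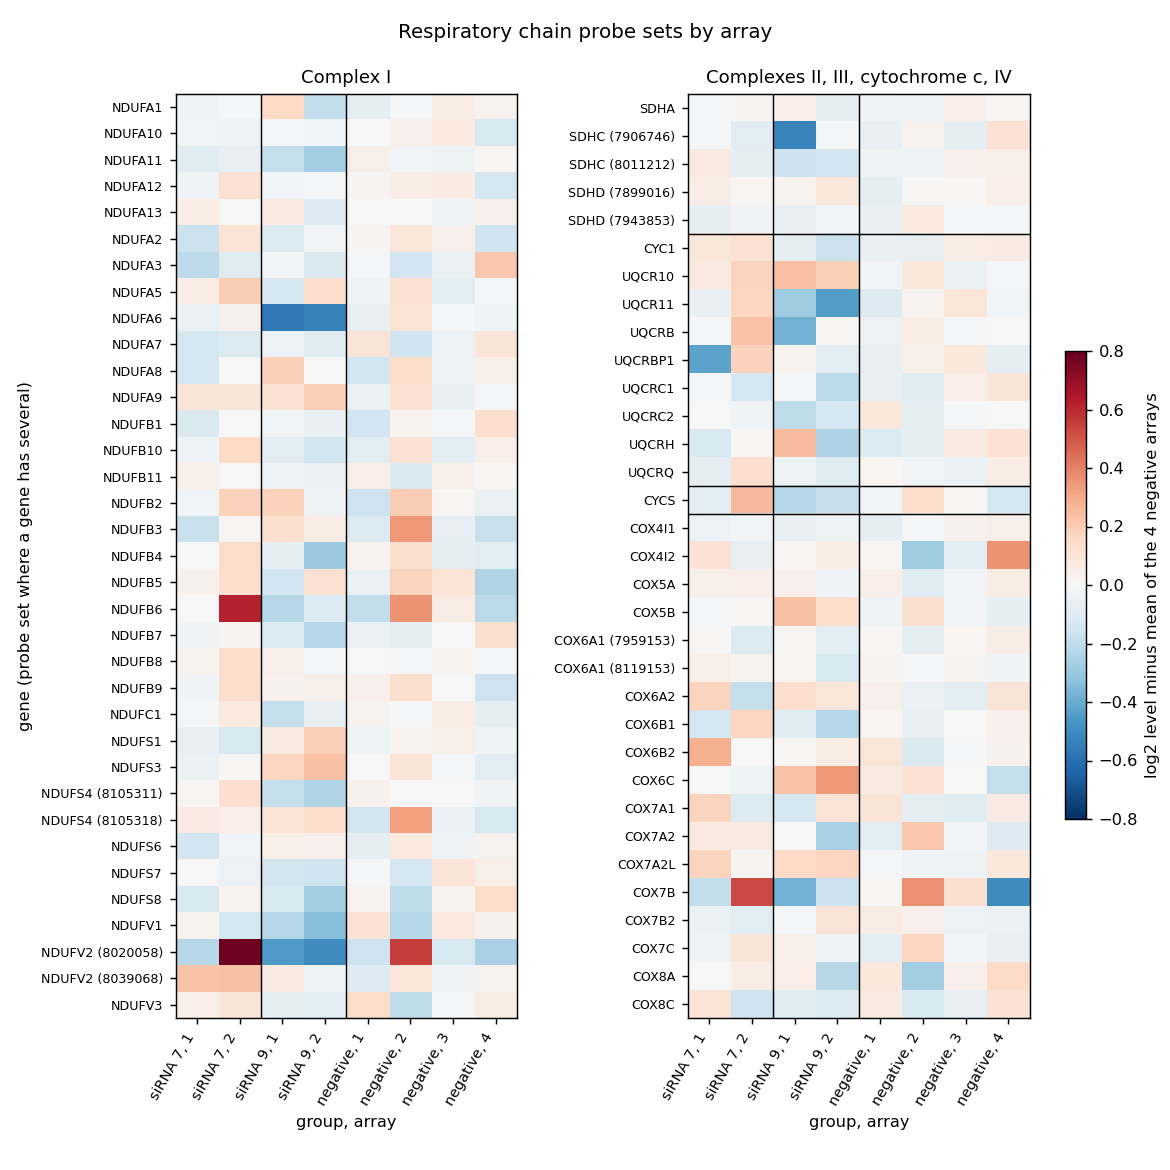
Each respiratory chain probe set (rows) on each array (columns), as the log2 level minus the mean of the 4 negative arrays, red for higher and blue for lower. Black lines separate the groups and the complexes. NDUFA6 is blue on both siRNA 9 arrays, and NDUFV2 (1 of its probe sets), NDUFB6 and COX7B are red on siRNA 7 array 2 and negative array 2.

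Part of the variation between arrays ran within groups. The SD over the 4 negative arrays had a median of 0.09 over the members, against 0.13 over all probe sets, and ranged from 0.02 for NDUFB8 to 0.37 for NDUFV2 on its dimmer probe set. The members with the widest range on the negative arrays, named after their values were seen, were COX7B, NDUFV2 on that probe set, COX4I2, NDUFB6 and NDUFB3. COX7B had 8.71 and 9.43 with siRNA 7 and 8.53 and 8.73 with siRNA 9, against 8.91, 9.27, 9.03 and 8.40 with negative siRNA. NDUFV2 on its dimmer probe set had 8.60 and 9.61 with siRNA 7, beside the values given above, and NDUFB3 had 7.65 and 7.84, against 7.72, 8.18, 7.77 and 7.65 with negative siRNA. For COX7B, NDUFV2 and NDUFB6 the highest levels of all 8 arrays were on siRNA 7 array 2 and negative array 2.

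That pair of arrays was picked after the values were seen, and of all pairs only it and the siRNA 9 arrays were counted. The siRNA 9 arrays were the lowest pair for 11 of 68 members (16.2%, beside 6.94% of all probe sets). They were the highest pair for 5 (7.35%, beside 10.3%). The picked pair, siRNA 7 array 2 and negative array 2, held the highest values for 14 of 68 members (20.6%, beside 5.17%). These were NDUFA2, NDUFA6, NDUFB2, NDUFB4, NDUFB5, NDUFB6, NDUFB9, NDUFB10, 1 probe set of NDUFV2, UQCRB, CYCS, COX7A2, COX7B and COX7C. With each probe set centred over the 8 arrays, complex I averaged 0.09 on siRNA 7 array 2 and -0.02 on siRNA 7 array 1, -0.04 and -0.07 on the siRNA 9 arrays, and -0.02, 0.07, 0.01 and -0.02 on the negative arrays. Complex III averaged -0.04 and 0.11 on the siRNA 7 arrays and -0.03 and -0.12 on the siRNA 9 arrays, against -0.02, 0.01, 0.05 and 0.05 on the negative arrays. Complex IV stayed between -0.02 and 0.03 on all arrays. All probe sets tested averaged -0.02 on siRNA 7 array 2 and -0.03 on negative array 2. The part of these array differences in the values by reagent was not tested.

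**Figure D4:**
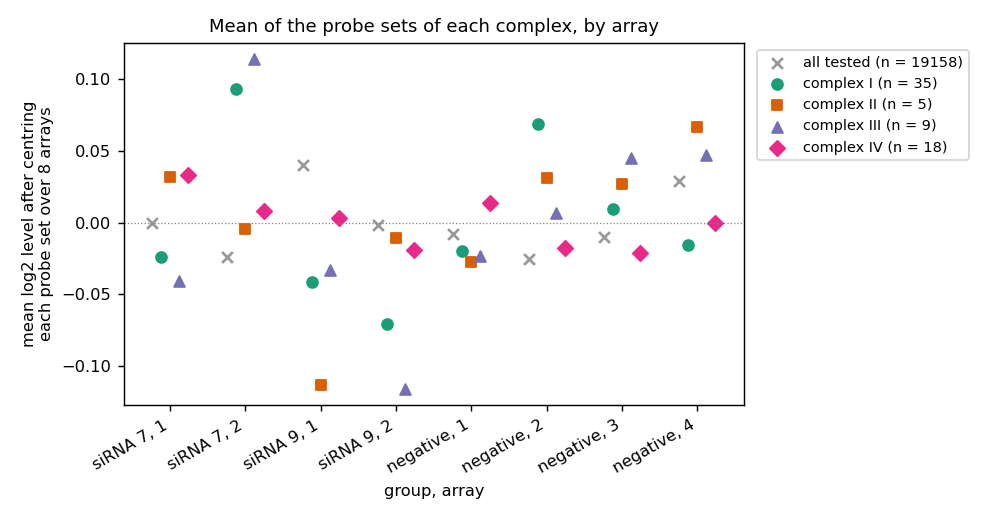
Mean log2 level of the probe sets of each complex, and of all probe sets tested, on each array (horizontal axis), after centring each probe set over the 8 arrays. Complex I was highest on siRNA 7 array 2 (0.09) and negative array 2 (0.07), and complex III lowest on siRNA 9 array 2 (-0.12).

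The lists of genes that build, regulate or feed the chain held 17, 13, 9, 17, 12, 11 and 5 measured genes. Of all of these, 1 passed with siRNA 9, where 0.924% of all probe sets did. TIMMDC1, an assembly factor of the membrane arm of complex I, had 10.55 and 10.76 with siRNA 9, against 11.11, 11.13, 11.15 and 11.08 with negative siRNA. All negative arrays lay above, and TIMMDC1 fell by 0.46 on the log2 scale (SE 0.09, adjusted p = 0.0411). With siRNA 7 it had 11.09 and 11.14, inside the negative range, and the reagents differed by 0.45 (SE 0.11, adjusted p = 0.0487). Between the reagents 2.23% of all probe sets passed. The siRNA 9 call ended with each array but negative array 2 left out in turn, with adjusted p of 0.0560 to 0.503, with all probe sets (0.130) and with only the arrays compared (0.0560). That between the reagents ended without negative arrays 1 or 3 or any siRNA array, with adjusted p of 0.0746 to 0.374. It also ended after quantile normalization (0.0644) or median centring (0.0511), with all probe sets (0.125) and with only the arrays compared (0.0567). The other 12 of 13 measured assembly factors of complex I did not pass, among them NDUFAF7, an arginine methyltransferase, at 0.30 with siRNA 9 (adjusted p = 0.212) and 0.19 with siRNA 7.

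Among 9 assembly factors of complexes II and III, none passed against negative siRNA. LYRM7, which guides the Rieske iron-sulfur protein into complex III, had 6.86 and 6.97 with siRNA 7 and 7.48 and 7.52 with siRNA 9, against 7.24, 7.44, 7.16 and 7.01 with negative siRNA. The siRNA 7 arrays were below and the siRNA 9 arrays above the whole negative range. The differences from negative siRNA were -0.30 (adjusted p = 0.561) and 0.29 (0.291), and the reagents differed by -0.59 (SE 0.13, adjusted p = 0.0457). That call ended after quantile normalization (adjusted p = 0.0600) or median centring (0.0763), with all probe sets (0.135), and without negative arrays 1 or 3 or any siRNA array (0.0665 to 0.269). UQCC1, an assembly factor for cytochrome b, had 0.28 with siRNA 9 (adjusted p = 0.200), and TTC19 had -0.25 with siRNA 7 (0.591). Of 17 assembly factors of complex IV, none passed in any comparison. Those of smallest p were COA7 at -0.22 and COX20 at -0.21 with siRNA 7, and SURF1 at -0.18 and COA4 at 0.17 with siRNA 9.

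No ATP synthase gene passed (0 of 17 measured). ATP5MJ, a small membrane subunit, had 10.03 and 10.32 with siRNA 7 and 9.76 and 9.72 with siRNA 9, against 10.13, 10.25, 10.16 and 9.96 with negative siRNA, and its siRNA 9 difference was -0.38 (SE 0.11, adjusted p = 0.145). ATP5ME had 0.19 with siRNA 9 (adjusted p = 0.396). ATP5IF1, the natural inhibitor of the enzyme, had -0.25 with siRNA 7 (adjusted p = 0.521) and ATP5MC2 had -0.13 (0.924), which was -0.02 without siRNA 7 array 2. None of 12 regulators of mitochondrial gene expression passed. Of these, TFB2M, a mitochondrial transcription factor, had 0.22 and the coactivator PPARGC1A had -0.35 with siRNA 7 (adjusted p = 0.556 and 0.561), while PPRC1 had -0.28 and POLRMT, the mitochondrial RNA polymerase, had -0.20 with siRNA 9 (0.305 and 0.507). Single arrays moved these values, PPARGC1A to -0.14 without siRNA 7 array 2 and -0.57 without array 1, and POLRMT to -0.06 without siRNA 9 array 2 and -0.34 without array 1.

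None of 11 citric acid cycle enzymes passed, and 9 of them were below 0 with siRNA 9, with a median of -0.09. IDH3A and IDH3B, subunits of the NAD-dependent isocitrate dehydrogenase, had -0.31 and -0.22 (adjusted p = 0.190 and 0.267). With siRNA 7 the median was 0.01, with SUCLA2 at 0.13 and SUCLG2 at -0.17. Without siRNA 7 array 2, SUCLG2 had 0.01. The 5 hypoxia genes that act on mitochondria had no call. PDK1, which closes pyruvate dehydrogenase, had 10.34 and 10.14 with siRNA 7, against 10.51, 10.62, 10.56 and 10.52 with negative siRNA, a difference of -0.31 (adjusted p = 0.378). BNIP3, a mitophagy receptor, had 12.71 and 12.70 with siRNA 9, against 12.27, 12.74, 12.28 and 12.37 with negative siRNA, a difference of 0.30 (adjusted p = 0.335). Negative array 2 stood with the siRNA 9 arrays for BNIP3, and without it the difference was 0.40 and passed (adjusted p = 0.0204), as did 5.57% of all probe sets. BNIP3L, its relative, had -0.17 with siRNA 7 and 0.19 with siRNA 9.

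The start regions of the member genes were searched for the 3 motifs. RefSeq windows were at hand for 54 of the 63 genes, 63 windows in all. The NRF1 motif was in 19.0% of these windows and in 5.78% of all 35116 windows of the same length, the ETS motif in 22.2% and 10.3%, and the YY1 motif in 19.0% and 5.84%. Of the 54 genes, 12 held the NRF1 motif, 14 the ETS motif and 12 the YY1 motif, with 32 holding at least 1. With siRNA 9 the median difference was -0.04 in genes with the NRF1 motif and -0.04 in those without, -0.03 and -0.05 for the ETS motif, and -0.07 and -0.04 for the YY1 motif. With siRNA 7 the medians lay between -0.00 and 0.03 for all 6 of these sets. A match is a run of letters and no measured site, and no difference between these sets was tested.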

How the data were processed

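RNA of 8 samples was made into biotin-labelled sense cDNA for 8 Affymetrix arrays, per the labels' protocols. The values the authors deposited are on a log2 scale, with 1 level for each array and probe set, and limma is named in the submitters' processing notes. How they were normalized or filtered is not stated in what was used here. At equal rank, deposited log2 levels of any 2 arrays lay within 0.180 of each other. Depth is not a property of arrays, and their number limits the precision.

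Gene symbols are those of the platform annotation. A RefSeq table of GRCh38.p14 held the gene ID of 19128 and changed 0 symbols. All 19158 probe sets with 1 symbol were fitted with limma (lmFit, eBayes) with no filter, with 2 group means for both reagents together and 3 group means for each reagent, 2-sided, with Benjamini-Hochberg adjustment over the 19158 and a threshold of 0.05. Values are log2 differences with SE. A gene with several probe sets was represented, unless both are given, by the one with the highest mean level. The annotation gave no position for probe sets. Whether the brighter ones of NDUFV2, SDHC and SDHD read these genes or a pseudogene was not tested. Fits were tested on simulated data. The members, gene lists and tests were chosen with earlier results of these data known. Named genes were those past the threshold, the 4 members each way of smallest unadjusted p per comparison, 1 to 3 per complex for both reagents together, isoforms with their partners, core subunits, and 2 genes per pathway list and reagent. Genes and motifs named beyond this rule are given as values only. Counts, medians and most named genes were recomputed after median centring, quantile normalization and with the upper 50% of probe sets (which keeps 60 of the 68 members). Further settings were all probe sets, a trended and robust prior, array weights, a replicate block and 3 group means. The last were a random block of siRNA identity, only the arrays compared and leaving out each array. The medians alone were also recomputed with 1 probe set per gene. Fits used limma 3.58.1 with statmod 1.5.0 in R 4.3.3, and plots matplotlib 3.10.9.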

Additional observations from a re-analysis of the deposited data

Results flagged for a closer look

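NDUFA6 is listed because the difference between the reagents itself passed the test, at 0.54 for siRNA 7 minus siRNA 9 (limma adjusted p = 0.0233), with -0.01 for siRNA 7 and -0.55 for siRNA 9 against negative siRNA. TIMMDC1 is listed for the same reason, at 0.45 (adjusted p = 0.0487), with -0.00 for siRNA 7 and -0.46 for siRNA 9. LYRM7 is listed too, at -0.59 (adjusted p = 0.0457), with -0.30 for siRNA 7 and 0.29 for siRNA 9.

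Single arrays stood apart in 3 of 126 groups of 4 arrays that were checked, for 3 genes. COX7A2L was 8.55 on siRNA 7 array 2, below 8.69 to 8.70 on the other TRIM44 siRNA arrays. POLRMT was 9.30 on siRNA 9 array 2, below 9.57 to 9.61 on the other TRIM44 siRNA arrays. ATP5ME was 10.03 on negative array 1, below 10.15 to 10.16 on the other negative arrays. Chance alone puts about 1 in 20 groups past this limit.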

How the results depend on the processing

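The count of members past the threshold was 0 under all 17 alternatives for both reagents together and under all 16 for siRNA 7, in limma. For siRNA 9 the 1 member called, NDUFA6, became 5 with array weights, when NDUFV1 (-0.34, adjusted p = 0.0218), UQCR11 (-0.41, 0.0119), UQCR10 (0.25, 0.0410) and COX6C (0.28, 0.0373) also passed and 10.9% of all probe sets did. Outside the members, ATP5MJ (-0.40, 0.0112), NDUFAF7 (0.30, 0.0379), UQCC1 (0.31, 0.0209), LYRM7 (0.32, 0.0278), IDH3A (-0.37, 0.0191) and BNIP3 (0.39, 0.0169) passed with siRNA 9 under array weights too. The count was 0 with all probe sets and with the replicate block, and 0 to 2 with negative arrays left out in turn. It was 2 of 68 without negative array 2, beside 5.57% of all probe sets. Between the reagents the count was 2 of 60 members in the upper 50% of probe sets, beside 7.34% of all tested there. It was 0 with all probe sets, and 0 to 1 with negative arrays left out. With all probe sets, 8 members for siRNA 9 and 5 between the reagents had an unadjusted p under 0.05. Without negative array 3 there were 4 and 5. The share of all probe sets at that p was computed only for the main fits. There it was 13.6% for siRNA 9 and 15.7% between the reagents, each above the 11.8% of members. Isoforms, their partners and core subunits were recomputed singly only where another naming rule also chose them. The cause of these shifts was not tested.

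The member median moved by more than the SD of its array values for siRNA 7 to 0.0024 after quantile normalization and 0.0077 with array weights, between the reagents to 0.029 after quantile normalization and 0.078 after median centring, and for both reagents together to -0.037 with array weights. With arrays left out in turn it ran from -0.016 to 0.023 for siRNA 7, 0.033 to 0.094 between the reagents, -0.057 to -0.023 for siRNA 9 and -0.033 to 0.0080 for both together. With siRNA 7, NDUFB6 ran from -0.0030 to 0.62 and SUCLG2 from -0.36 to 0.0077, each changing sign without siRNA 7 array 2.

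TRIM44 kept its sign against negative siRNA. For both reagents together it lost its call after median centring (-0.81, adjusted p = 0.108), with all probe sets (-0.81, 0.442), the replicate block (-0.88, 0.998) and siRNA identity as a random block (-0.81, 0.108). With siRNA 7 this held after median centring (-0.83, 0.0660), with all probe sets (-0.84, 0.262), the replicate block (-0.91, 0.152) and only the arrays compared (-0.84, 0.117), and with siRNA 9 for all probe sets (-0.78, 0.0857). With arrays left out in turn, the call for both together was lost without each array but siRNA 7 array 2 (adjusted p = 0.0587 to 0.291), that with siRNA 7 without each array but negative array 2 and siRNA 7 array 2 (0.0525 to 0.122), and that with siRNA 9 without siRNA 9 array 1 (0.240) or array 2 (0.203). With arrays left out it ran from -0.87 to -0.73 for both, -1.05 to -0.63 for siRNA 7 and -0.83 to -0.74 for siRNA 9, and between the reagents from -0.27 to 0.15.

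Equal replicate numbers did not establish pairs, since each reagent has 2 arrays. In their deviations from the group means, same-numbered arrays correlated at 0.27 and 0.31 between siRNA 7 and negative siRNA. Between siRNA 9 and negative siRNA they correlated at 0.06 and 0.13, and between the reagents at 0.02. The deviations of the 2 arrays of a reagent mirror each other. Differently numbered arrays therefore had the same sizes with a negative sign, and these values cannot establish pairs. The siRNA 7 and negative arrays that were together highest for 20.6% of the members, picked after the values were seen, share replicate number 2. With the replicate block NDUFA6 was -0.58 with siRNA 9 (adjusted p = 0.0724) and TIMMDC1 -0.46 (0.163), and between the reagents TIMMDC1 was 0.45 (0.0656).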
